A study of Mus musculus with 3 samples.

Results

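Lhx6, Lhx8, Nkx2-1, Satb1, Maf, Etv1, Npas1, Npas3 and Bcl11b encode transcription factors known from inhibitory neurons of the medial ganglionic eminence (MGE), the part of the embryonic forebrain in which neocortical somatostatin (Sst) neurons are born. These 9 genes of the 31053 in the count matrices were chosen by name. They were followed in Sst-Cre;RCE mouse neocortex, in which Cre made under the Sst gene switches on a GFP reporter, so that a cell keeps GFP after Sst itself is no longer made. All groups carry SstCre/+ and RCEfl/+, and the labels name no treatment. GFP-positive, DAPI-negative cells were sorted and made into 1 10x Chromium 3′ library per stage. The stages were E16.5, P1 and P5, where E stands for embryonic day and P for postnatal day. The tissue of 6 animals was pooled for the E16.5 library and that of 3 animals for each of the P1 and P5 libraries. With 1 library per stage there is no replicate, stage and library cannot be told apart, and no test was made.

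Nkx2-1 patterns MGE progenitors and switches on Lhx6, a LIM homeodomain factor that newborn MGE interneurons keep as they migrate to the cortex. Satb1, a chromatin organiser, acts downstream of Lhx6 in Sst interneurons, and Maf, a basic leucine zipper factor, takes part in the fates of Sst and parvalbumin interneurons. Lhx8, a close relative of Lhx6, is best known from cholinergic and other ventral forebrain neurons. Npas1 and Npas3 are bHLH-PAS factors, Etv1 is an ETS factor, and Bcl11b (Ctip2) is a zinc finger repressor that deep-layer projection neurons also make.

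Levels are UMIs (captured mRNA molecules) of a gene scaled to 1000000 UMIs of a class of cells (CPM), with 95% Poisson intervals in square brackets, and shares of cells with a UMI of a gene are given at an equal depth of 2000 UMIs drawn from each cell. The intervals cover counting error only. Because 3′ counts are not scaled to transcript length, levels of different genes are not set against each other. Of 12324 cells, 9433 had more than 700 genes and under 10% mitochondrial UMIs. The P1 library stood apart, with 56.3% of its cells kept against 88.3% at E16.5 and 87.5% at P5, and a median mitochondrial share of 5.92% against 4.05% and 4.21%. In all, 10 cell barcodes occurred in at least 2 libraries.

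Sst-high cells held at least 5 Sst UMIs and no Nos1, and numbered 1920 at E16.5, 757 at P1 and then 896 at P5. Nos1 cells, with at least 1 UMI of the neuronal nitric oxide synthase gene that marks long-range projecting neurons, numbered 67, 434 and 547. Cells with Lhx6 and 0 Sst UMIs numbered 776, 491 and 559. Median UMIs per cell at E16.5, P1 and P5 were 6457, 4557 and 5542.5 in Sst-high cells, 7863, 3704.5 and 3073 in Nos1 cells, and 4979.5, 3117 and 3316 in Lhx6 cells without Sst. Of the latter, 2, 26 and 14 cells also held Nos1. On either side of the Sst limit, cells with 4 and with 5 Sst UMIs had 469 and 493 CPM of Lhx6 at E16.5, 791 and 711 at P1, and 438 and 516 at P5. Some members lay further from the level of the whole Sst-high class. At E16.5 these cells had 210 and 245 CPM of Npas1, against 85.3 in the class. At P1 they had 2465 and 1758 CPM of Maf against 1289, and 8.24 and 13.2 of Etv1 against 25.9. The part of the Sst level in the class comparisons was not tested.

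Inhibitory markers (Gad1, Gad2 and Slc32a1) were detected in each class and library, at a summed 566 to 1231 CPM. The 6 excitatory genes, among them Neurod2, Neurod6, Slc17a7, Slc17a6 and Tbr1, summed to at most 7.43 CPM in Sst-high cells and 28.8 CPM in Lhx6 cells without Sst. In Nos1 cells they reached 670 CPM at E16.5 and 177 CPM at P1, with each of the 6 detected, and 6.62 CPM at P5. Main values of E16.5 Nos1 cells are therefore also given for the 53 cells left after removal of cells with UMIs of at least 2 excitatory genes. The 9 markers of glia, blood and vessels summed to 1.52 to 11.8 CPM, and Aldh1l1 and Cldn5 were at 0 in each class and library.

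A background was read from cells with at least 5 UMIs of the excitatory genes and at most 1 of Gad1 and Gad2. There were 38, 32 and 21 such cells, with medians of 11791.5, 6045.5 and 4334 UMIs. Of them, 13, 10 and 1 held Nos1 and so also belonged to the Nos1 class. Projection neurons make Bcl11b, Etv1 and Satb1 themselves, so the background applies to Lhx6, Lhx8, Nkx2-1 and Npas1. In these cells Lhx6 was at 21.3 [10.2-39.1], 14.0 [2.89-41.0] and 32.8 [6.77-95.9] CPM. Lhx8 and Nkx2-1 had 0 UMIs, with upper limits of 7.85, 17.3 and 40.3 CPM. Npas1 was at 12.8 [4.69-27.8] CPM at E16.5 and 0 UMIs later. At E16.5 a single cell held 6 of the 10 Lhx6 UMIs, and a single cell 5 of the 6 Npas1 UMIs. Whether these UMIs came from free RNA or from doublets was not tested.

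Npas1 and Npas3, which moved together in several comparisons, lie on chromosomes 7 (16455721 to 16477728, minus strand) and 12 (53248677 to 54072175, plus strand) of GRCm38, and their RefSeq promoters (GRCm38.p6), 250 bases before to 50 after the start, were chr7:16476731-16477030 and chr12:53248182-53248481. The Npas1 window lies within the GENCODE gene, whose outermost start is further upstream. The core letters ACGTG, searched on both strands and capitalised below, form part of the sites that bHLH-PAS factors bind. They occurred in 19.6% of 32851 promoters of this length, and of these 2 windows only that of Npas3 held them, on the strand opposite to the one printed. A match is a string of letters and not a binding site.
Npas1 promoter: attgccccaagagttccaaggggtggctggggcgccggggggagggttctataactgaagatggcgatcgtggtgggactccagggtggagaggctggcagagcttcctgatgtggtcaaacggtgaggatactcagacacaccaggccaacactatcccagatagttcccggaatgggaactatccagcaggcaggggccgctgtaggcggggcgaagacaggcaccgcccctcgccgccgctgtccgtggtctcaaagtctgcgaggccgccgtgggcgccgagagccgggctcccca
Npas3 promoter: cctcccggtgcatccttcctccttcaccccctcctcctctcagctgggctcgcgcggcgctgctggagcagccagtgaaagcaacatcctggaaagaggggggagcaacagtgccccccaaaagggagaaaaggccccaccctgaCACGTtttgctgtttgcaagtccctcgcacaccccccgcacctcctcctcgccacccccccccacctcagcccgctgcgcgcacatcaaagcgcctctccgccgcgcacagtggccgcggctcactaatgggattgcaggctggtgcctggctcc

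Lhx6 was at like levels in Sst-high and Nos1 cells. In Sst-high cells it was at 415 [404-426] CPM at E16.5, 738 [714-764] at P1 and then 470 [451-489] at P5. In Nos1 cells it was at 372 [325-424], 733 [695-771] and 501 [470-533] CPM. The intervals of both classes overlapped at each stage, with log2 ratios of Nos1 over Sst-high cells of -0.16 (-0.36 to 0.04), -0.01 (-0.10 to 0.08) and 0.09 (-0.02 to 0.20). P1 was the highest of the 3 libraries in both classes, and it was also the highest in Lhx6 cells without Sst, where the rule itself required Lhx6. At 2000 UMIs per cell, Lhx6 was seen in 56.0%, 74.0% and 59.3% of Sst-high cells and in 53.8%, 72.5% and 53.9% of Nos1 cells, against 2.63%, 6.45% and 10.5% of the excitatory-gene cells. Leaving the excitatory cells out put E16.5 Nos1 cells at 537 [468-613] CPM, above the Sst-high interval.

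Lhx8, the relative of Lhx6, was sparse and was highest in Nos1 cells. It gave 13.5 [5.81-26.5] CPM at E16.5, 13.2 [8.62-19.3] at P1 and later 9.17 [5.43-14.5] at P5 there, from 8, 26 and 18 UMIs. Sst-high cells gave 4.58 [3.54-5.83], 1.31 [0.479-2.84] and 0.201 [0.0051-1.12] CPM, from 66, 6 and 1 UMIs. The intervals were apart at P1 and P5 and touched at E16.5. The log2 ratio of Nos1 over Sst-high cells was 1.37 (0.28 to 2.62) at E16.5 and 2.62 (2.02 to 4.91) at P1. With a pseudocount of 5 CPM the E16.5 ratio was 0.95, inside 2-fold. With over 1000 genes and under 5% mitochondrial UMIs the P1 ratio was 1.45, with Sst-high cells at 7.40 [2.40-17.3] CPM from 5 UMIs. Nos1 cells were then at 21.9 [13.2-34.2] CPM, so that the P1 intervals overlapped. The P1 and P5 levels of Nos1 cells were under the upper limits of 17.3 and 40.3 CPM in the excitatory-gene cells. At P5, where Lhx8 was under the limit of 10 CPM, the ratio was 3.08, and its counting interval ran from 2.85 to 10.9. These UMIs were spread over cells, with 7 of 67, 22 of 434 and 18 of 547 Nos1 cells carrying any. Nos1 cells in which Gad1 or Gad2 was also seen gave a ratio of 2.49 at P1, and at E16.5 they left Lhx8 under the count limits.

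Nkx2-1, the progenitor factor, was near the detection limit after E16.5. Sst-high cells held 142 UMIs, or 9.86 [8.31-11.6] CPM, in 94 of 1920 cells at E16.5, 1 UMI at P1 and then 2 at P5. In Lhx6 cells without Sst there were 10, 13 and 4 UMIs, or 2.62 [1.26-4.83], 7.49 [3.99-12.8] and 2.02 [0.551-5.17] CPM. The order of these classes was therefore opposite at E16.5 and P1, with intervals that did not overlap at either stage. The P1 order rests on 13 UMIs against 1, and 7.49 CPM is under the upper limit of 17.3 CPM in the excitatory-gene cells. With over 1000 genes and under 5% mitochondrial UMIs the P1 intervals overlapped. Lhx6 cells without Sst were then at 14.5 [4.71-33.8] CPM and Sst-high cells at 1.48 [0.0374-8.24]. Nos1 cells held 5, 4 and 1 UMIs. Under the main cell limits, Nkx2-1 reached 10 CPM in none of these 3 classes in any library and entered no count of genes past 2-fold between them. Gm26973 overlaps it on the other strand.

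**Figure D1:**
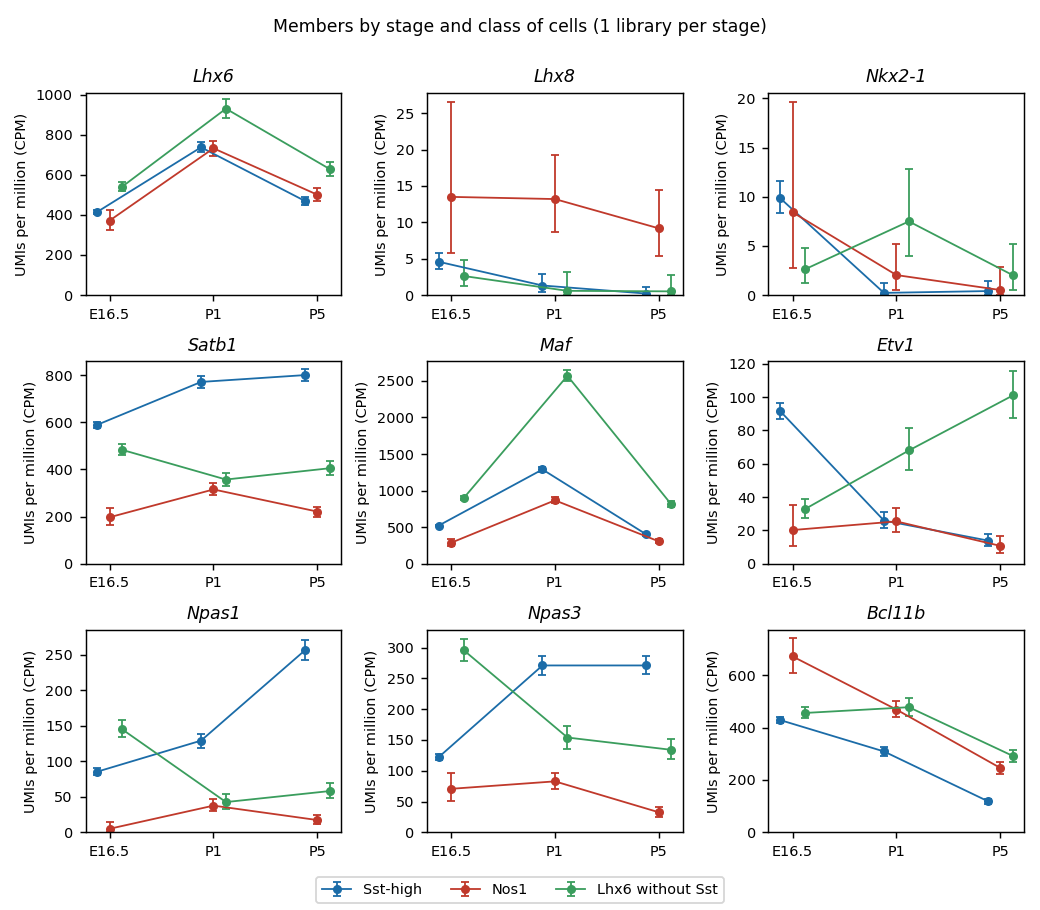
Level of each member in CPM (y axis, linear, from 0) at E16.5, P1 and P5 (x axis) in Sst-high cells, Nos1 cells and Lhx6 cells without Sst, with 95% Poisson intervals and 1 library per stage. Lhx6 and Maf are highest at P1 in each class, whereas the lines of Etv1, Npas1 and Npas3 for Sst-high cells and Lhx6 cells without Sst cross.

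Satb1 was higher in Sst-high cells than in both other classes at each stage. Sst-high cells had 589 [577-602], 771 [746-797] and 800 [775-825] CPM. Nos1 cells had 197 [163-236], 315 [291-341] and 221 [200-242] CPM, and Lhx6 cells without Sst had 483 [461-506], 357 [329-386] and 405 [378-434] CPM. The 3 intervals were apart at E16.5 and P5 and each Nos1 value was the lowest. Nos1 over Sst-high log2 ratios were -1.58 (-1.86 to -1.32), -1.29 (-1.41 to -1.17) and -1.85 (-2.0 to -1.71). At 2000 UMIs, Satb1 was seen in 58.8%, 58.2% and 72.6% of Sst-high cells and in 21.5%, 37.6% and 32.6% of Nos1 cells. Satb1 also shares its span with 5 other annotated genes on its own strand, to which reads may have been split.

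Maf was highest at P1 in each class. Sst-high cells had 521 [509-533], 1289 [1256-1322] and 400 [383-418] CPM. Nos1 cells had 286 [245-333], 867 [826-909] and 305 [281-331] CPM, and Lhx6 cells without Sst had 895 [865-926], 2570 [2496-2647] and 811 [772-852] CPM. The order of the 3 classes was the same at each stage, with Lhx6 cells without Sst above Sst-high cells above Nos1 cells, and no intervals overlapped. Without the excitatory cells, E16.5 Nos1 cells were at 393 [335-459] CPM, a log2 ratio to Sst-high cells of -0.41 in place of -0.86. Limits of over 1000 genes and under 5% mitochondrial UMIs, which are not set on excitatory genes, moved it the other way, to -1.31. Under these limits the P1 ratio was -1.04 in place of -0.57 and the P5 ratio -0.38 in place of -0.39. P1 over E16.5 was 1.30 (1.26 to 1.36) in Sst-high cells, 1.60 (1.37 to 1.83) in Nos1 cells and 1.52 (1.46 to 1.59) in Lhx6 cells without Sst on the log2 scale. P5 and E16.5 differed by at most 0.38 on that scale. Maf at P1 was also high among cells of low mitochondrial share, at 1905 CPM in the 184 Sst-high cells with over 1000 genes and under 5% mitochondrial UMIs.

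Etv1 reversed between classes. In Sst-high cells it was at 91.7 [86.8-96.7] CPM at E16.5, 25.9 [21.5-31.0] at P1 and later 13.9 [10.8-17.6] at P5. In Lhx6 cells without Sst it was at 32.8 [27.3-39.1], 68.0 [56.3-81.4] and 101 [87.5-116] CPM. No interval of one class overlapped that of the other at the same stage. The log2 ratio of Lhx6 cells without Sst over Sst-high cells was -1.45 (-1.76 to -1.22), 1.36 (1.01 to 1.77) and 2.78 (2.46 to 3.28). The share of cells with Etv1 at 2000 UMIs followed, from 10.4% to 3.81% and 2.42% in Sst-high cells and from 4.27% to 10.5% and 16.8% in Lhx6 cells without Sst. With Sst-high cells also required to hold Lhx6, a setting added after the data were seen, the ratios were -1.49, 1.30 and 2.85. Nos1 cells were at 20.2 [10.4-35.3], 25.4 [18.8-33.5] and 10.7 [6.62-16.4] CPM, below Sst-high cells at E16.5 and with overlapping intervals later.

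Npas1 in Sst-high cells was at 85.3 [80.6-90.3], 129 [118-139] and 256 [242-271] CPM in the order of the stages, and was seen in 13.3%, 14.9% and 36.1% of these cells at 2000 UMIs. Nos1 cells had 5.05 [1.04-14.8], 37.6 [29.5-47.2] and 17.3 [12.0-24.2] CPM, from 3, 74 and 34 UMIs. The E16.5 value lay within the interval of the excitatory-gene background. Lhx6 cells without Sst had 145 [134-158], 42.6 [33.5-53.5] and 58.1 [48.0-69.7] CPM, above Sst-high cells at E16.5 and below them at P1 and P5. Nos1 over Sst-high log2 ratios were -3.84 (-6.36 to -2.53), -1.75 (-2.14 to -1.42) and -3.81 (-4.42 to -3.40). Over the same Sst-high cells, Lhx6 cells without Sst gave 0.76 (0.62 to 0.92), -1.57 (-1.96 to -1.24) and -2.12 (-2.43 to -1.86).

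Npas3 was likewise higher in Lhx6 cells without Sst than in Sst-high cells at E16.5 and lower later. Sst-high cells had 122 [117-128], 271 [256-286] and 271 [257-286] CPM, and Lhx6 cells without Sst had 296 [279-314], 154 [136-173] and 134 [119-152] CPM. Nos1 cells had 70.7 [50.9-95.6], 82.8 [70.5-96.5] and 32.6 [25.1-41.6] CPM, the lowest of the 3 classes at each stage. Without the excitatory cells, E16.5 Nos1 cells had 90.3 [63.6-124] CPM, which overlapped the Sst-high interval, and a ratio of -0.44 in place of -0.78. Limits of over 1000 genes and under 5% mitochondrial UMIs, which are not set on excitatory genes, moved it the other way, to -1.43. E16.5 Nos1 cells then had 44.7 [27.7-68.3] CPM and Sst-high cells 122 [116-129]. Nos1 over Sst-high log2 ratios were -0.78 (-1.27 to -0.35), -1.70 (-1.96 to -1.47) and -3.02 (-3.44 to -2.69). Lhx6 cells without Sst over Sst-high cells gave 1.27 (1.16 to 1.38), -0.81 (-1.01 to -0.63) and -1.01 (-1.21 to -0.82). The P5 value was just under 2-fold in 8 of 16 alternatives, the smallest being -0.97.

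The P1 values of Npas1 and Npas3 moved under stricter limits on genes and mitochondrial share, which were changed together. In the 184 of 757 P1 Sst-high cells with over 1000 genes and under 5% mitochondrial UMIs, Npas1 was at 50.3 [34.8-70.3] CPM in place of 129 and Npas3 at 104 [80.7-131] in place of 271. In the 1441 E16.5 Sst-high cells under these limits Npas1 was at 87.9 [82.2-93.7] CPM, so that the direction from E16.5 to P1 turned. Under the same limits Npas3 was no longer higher at P1 than at E16.5, with a log2 ratio of -0.24 in place of 1.14. In the 641 of 896 P5 Sst-high cells that passed the same limits, Npas1 was at 266 [250-282] and Npas3 at 289 [273-306] CPM. In the 108 P1 Lhx6 cells without Sst under these limits Npas1 was at 31.9 [15.9-57.0] and Npas3 at 98.5 [68.2-138] CPM, each overlapping the Sst-high interval. Their P1 log2 ratios to Sst-high cells became -0.64 in place of -1.57 for Npas1 and -0.07 in place of -0.81 for Npas3, whereas at P5 they were -2.20 and -1.12. Satb1 in the P1 Sst-high cells was at 460 CPM in place of 771. The part of cell quality in the P1 levels was not tested.

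Bcl11b was lower at P5 than at E16.5 in each class. Sst-high cells had 429 [418-440], 309 [293-325] and 119 [110-129] CPM, Nos1 cells 672 [607-741], 469 [439-500] and 246 [224-268] CPM, and Lhx6 cells without Sst 456 [435-478], 478 [446-512] and 292 [268-316] CPM. Nos1 cells were above Sst-high cells at each stage, by 0.65 (0.50 to 0.79), 0.60 (0.48 to 0.72) and 1.03 (0.86 to 1.22) on the log2 scale. Without the excitatory cells, E16.5 Nos1 cells remained at 642 [567-724] CPM. With over 1000 genes and under 5% mitochondrial UMIs, the P1 ratio of Nos1 over Sst-high cells was 0.14. Nos1 cells were then at 523 [476-574] CPM and Sst-high cells at 473 [423-528], with overlapping intervals. The P5 ratio of 1.03 was under 2-fold in 4 of 16 alternatives. The ratios of Lhx6 cells without Sst were 0.09, 0.63 and 1.28 over Sst-high cells, so that their distance was larger at P5. Under the stricter cell limits these ratios were 0.08, 0.26 and 0.98. The excitatory-gene cells had 696 [622-776], 290 [222-372] and 252 [159-377] CPM.

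Between classes, the members past 2-fold (at least 1 on the log2 scale, with 1 CPM added, among genes with at least 10 UMIs in both groups together and 10 CPM in one of them) were counted against all genes so tested. Nos1 cells had Lhx8 higher and Satb1, Etv1 and Npas1 lower among 8 members at E16.5, where 4.78% of all genes were higher and 3.04% lower. At P1 Lhx8 was higher and Satb1, Npas1 and Npas3 lower among 8, with 2.84% and 2.48% of all genes. At P5 Bcl11b was higher and Satb1, Npas1 and Npas3 lower among 7, with 3.90% and 4.74%. The members' median log2 ratio was -0.82, -0.30 and -0.39, against 0.00, -0.01 and -0.06 over all genes tested. Without excitatory cells, 4 members were past 2-fold at E16.5, with Lhx8 at 1.89, Satb1 at -1.30, Etv1 at -1.62 and Npas1 at -3.38.

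The same Sst-high cells served for the other comparison. Lhx6 cells without Sst had Npas3 higher and Etv1 lower than these cells among 6 members at E16.5, where 0.976% of all genes were higher and 3.07% lower. At P1 Etv1 was higher and Satb1 and Npas1 were lower, with 1.63% and 5.31% of all genes, and Maf lay just inside 2-fold. At P5 Maf, Etv1 and Bcl11b were higher and Npas1 and Npas3 lower, with 2.27% and 2.40% of all genes. The members' medians were 0.43, -0.09 and 0.02, against 0.03, 0.01 and 0.03 over all genes. Markers of the parvalbumin side (Pvalb, Mef2c, Pthlh and St18) summed to 1732, 4162 and 3061 CPM in Lhx6 cells without Sst and to 680, 1251 and 791 CPM in Sst-high cells, with Pvalb at 0 in the former at E16.5 and P1. Immature neuron genes (Dcx, Sox4, Sox11, Igfbpl1 and Tubb3) summed to 10256, 5634 and 2794 CPM against 7261, 3899 and 1899 CPM. On the parvalbumin-side list the excitatory-gene cells summed to 838, 3433 and 2319 CPM, with Pvalb and Pthlh at 0 in each library. A high sum on that list is therefore not particular to the parvalbumin side. The part of either list in the members' ratios was not tested.

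**Figure D2:**
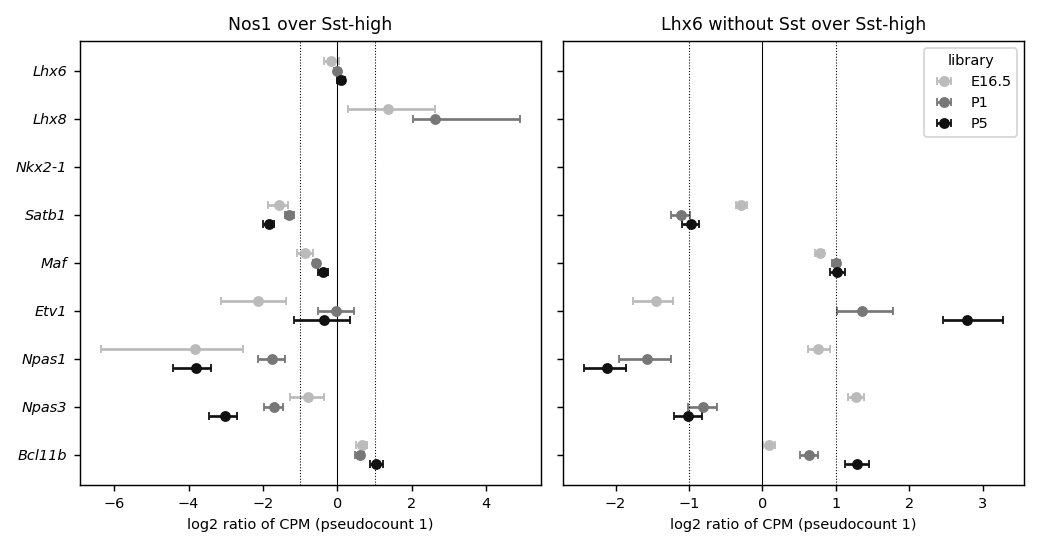
Log2 ratio of CPM (x axis, pseudocount 1 CPM) of each member tested (y axis) in Nos1 cells and in Lhx6 cells without Sst over Sst-high cells, by library, with 95% counting intervals taken without the pseudocount and dotted lines at 2-fold. Satb1, Npas1 and Npas3 lie left of 0 in Nos1 cells at each stage, and Etv1 moves from -1.45 to 2.78 in Lhx6 cells without Sst.

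Between stages, Maf and Npas3 were past 2-fold higher and Etv1 lower in Sst-high cells at P1 than at E16.5, where 12.0% of all genes were higher and 4.26% lower. From P1 to P5 Maf and Bcl11b were lower and no member higher, with 6.97% of all genes higher and 10.8% lower. Over the whole span Npas1 and Npas3 were higher and Etv1 and Bcl11b lower, with 17.6% and 14.4% of all genes. In Nos1 cells, Maf and Npas1 were higher at P1 than at E16.5 (13.5% of all genes were higher and 6.57% lower), Maf, Etv1, Npas1 and Npas3 were lower at P5 than at P1 (6.56% higher and 12.8% lower), and Npas1 was higher and Npas3 and Bcl11b lower at P5 than at E16.5 (16.2% and 16.3%). In Lhx6 cells without Sst, Maf and Etv1 were higher and Npas1 lower at P1 than at E16.5 (10.0% and 4.22%), Maf was lower at P5 than at P1 (11.8% higher and 12.6% lower), and Etv1 was higher and Npas1 and Npas3 lower at P5 than at E16.5 (19.8% and 15.4%). With all kept cells together, Maf was higher at P1 than at E16.5 (10.7% of genes were higher and 3.29% lower), Maf and Bcl11b were lower at P5 than at P1 (7.38% higher and 10.7% lower), and Bcl11b was lower at P5 than at E16.5 (17.5% higher and 14.0% lower). Etv1, Npas1 and Npas3 were within 2-fold there, although each changed past 2-fold within Sst-high cells.

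Genes that work with the members were read from 3 lists. The list of ventral patterning genes, among them Dlx1, Dlx2, Dlx5, Dlx6, Gsx2, Sp9, Sp8 and Otx2, had 8 of 11 tested in Sst-high cells between E16.5 and P5, of which 1 was higher and 3 lower (17.6% of all genes were higher and 14.4% lower), with a median of -0.56 against -0.01 over all genes. Dlx2 went from 204 to 23.6 CPM, Sp9 from 111 to 25.0 and Dlx5 from 141 to 52.4, whereas Dlx6 went from 35.5 to 91.9 CPM. Between classes, Sp9, a zinc finger factor of ventral progenitors, was at 377 CPM in Nos1 cells against 65.7 in Sst-high cells at P1 and at 365 against 25.0 at P5. It was the gene of this list past 2-fold higher in Nos1 cells at both postnatal stages. At E16.5 Dlx2 was at 85.8 CPM in Nos1 cells against 204 in Sst-high cells and Dlx1 at 119 against 277. For genes of the 3 lists, the E16.5 Nos1 values are of all 67 cells, with the excitatory cells not removed. The part of those cells in the values was not tested.

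Of the 15 partners and cofactors, among them Sox6, Zeb2, Lmo1, Lmo3, Lmo4, Ldb1, Ldb2, Arnt, Arnt2, Bcl11a, Isl1, Gbx1, Gbx2 and Zfhx3, 11 were tested in Sst-high cells between E16.5 and P5, with 1 higher and 3 lower (17.6% and 14.4% of all genes) and a median of -0.49 against -0.01 over all genes. Ldb1, the adaptor through which LIM homeodomain factors assemble, went from 64.9 to 15.1 CPM. The LIM-only genes differed in direction, with Lmo1 from 0.347 to 17.9 CPM, Lmo3 from 195 to 53.2 and Lmo4 from 317 to 129. In Nos1 cells Lmo4 was at 552 CPM against 261 in Sst-high cells at P1 and at 558 against 129 at P5. Arnt2, which pairs with bHLH-PAS factors, was at 110 CPM in Nos1 cells against 262 in Sst-high cells at P5. Zeb2, a zinc finger homeobox factor of migrating interneurons, was higher in Lhx6 cells without Sst at each stage, with 1676, 2391 and 1107 CPM against 636, 867 and 545.

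Of the 7 genes read as downstream of Lhx6 or Satb1 (Cxcr4, Ackr3, Erbb4, Nxph1, Cux2, Npy and Grik1), 7 were tested in Sst-high cells between E16.5 and P5, with 0 higher and 3 lower (17.6% and 14.4% of all genes) and a median of -0.79 against -0.01 over all genes. The chemokine receptor Ackr3 went from 117 to 3.83 CPM and Cxcr4 from 59.7 to 3.83, and Cux2 went from 220 to 99.3. Erbb4, the neuregulin receptor, was higher in Lhx6 cells without Sst at each stage, with 417, 546 and 341 CPM against 199, 212 and 118. The neuropeptide gene Npy was at 12366, 24679 and 34619 CPM in Nos1 cells, 2405, 2134 and 1396 in Sst-high cells and 173, 421 and 440 in Lhx6 cells without Sst. It was the most divergent of the 5 genes of this list that were tested in both class comparisons at P5.

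Within Sst-high cells, cells with at least 2 UMIs of a subtype marker were set against cells with none. Of 14 markers in 3 libraries, 21 pairs had at least 20 marker cells. In 18 of the 21 the marker cells had more UMIs in the median, with ratios of 0.614 to 3.10 over all pairs, and the part of depth was not tested. Lhx6 was past 2-fold in 0 of 21 pairs, with log2 ratios from -0.56 to 0.69. Npas1 was the most variable, with 5 pairs past 2-fold higher and 7 lower and a range of -5.02 to 3.14. Over all genes tested, 0.368% to 6.05% were past 2-fold higher in a pair and 1.01% to 10.9% lower.

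Reln cells, the gene of the secreted glycoprotein reelin, had 211 CPM of Npas1 against 23.0 in cells without at E16.5, where 0.368% of all genes were past 2-fold higher. At P1 the values were 182 against 46.2, with 1.54% of all genes higher, and at P5 287 against 174. Npas1 was thus higher in Reln cells at each stage, past 2-fold at the first 2 stages. Nkx2-1 was lower in Reln cells at E16.5, with 1.98 CPM against 16.1 (1.08% of all genes were lower). This was not particular to Reln cells, since Nkx2-1 was past 2-fold lower in 5 of the 8 pairs in which it was tested. The others were Cxcr4, Igfbpl1, Cort and Rbp4 cells at E16.5, with 1, 21, 9 and 2 UMIs. Of all genes, 4.22%, 2.67%, 2.41% and 6.12% were lower in these.

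Cells with the neuropeptide gene Cort, and cells with Rbp4, a retinol carrier gene, were low in Maf at each stage. In Cort cells Maf was at 280 against 606 CPM at E16.5 (2.41% of all genes were lower), 535 against 1922 at P1 (2.95%) and 225 against 602 at P5 (2.08%). In Rbp4 cells it was at 142 against 553 (6.12%), 347 against 1665 (3.67%) and 205 against 608 (1.58%). Etv1 reversed within these same markers, with 175 against 64.9 CPM in Cort cells at E16.5 (3.10% of all genes were higher) and 8.06 against 20.3 at P5, and with 192 against 83.6 in Rbp4 cells at E16.5 (4.14%), 12.7 against 32.3 at P1 and later 5.50 against 22.8 at P5. The E16.5 Rbp4 pair rests on 33 marker cells, in which Npas1 had 1 UMI.

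Cbln4, a synaptic organizer gene, marked 25 cells at E16.5 and 25 at P1. At E16.5 these cells had 19.6 CPM of Npas3 against 128 in cells without, where 8.65% of all genes were lower and 5.97% higher. Lhx8 had 3 UMIs in them, a log2 ratio of 1.26 with a counting interval from -0.877 to 3.06, which spans 0. At P1 these cells had 136 CPM of Etv1 against 15.0 in cells without (a log2 ratio of 3.10, 2.51 to 3.83), where 4.16% of all genes were higher, and 70.1 CPM of Npas3 against 292, where 10.5% were lower. Cells with Nr2f2, a nuclear receptor gene, had less Bcl11b at each stage, with 230 against 529 CPM at E16.5 (0.535% of all genes were higher and 1.01% lower), 139 against 394 at P1 (2.91%) and 64.6 against 147 at P5 (3.23%). Tac1 cells, 37 at E16.5, had 181 CPM of Satb1 against 604 (4.65% of all genes were lower), 9.03 of Npas1 against 88.3, and 21.1 of Lhx8 against 4.19, from 7 and 58 UMIs (4.67% of all genes were higher). Cells with the immature neuron gene Igfbpl1 had 150 CPM of Npas1 against 32.3 at E16.5 (1.01% of all genes were higher) but 32.1 against 143 at P1 (6.96% lower). Cells with the chemokine receptor gene Cxcr4 likewise had 177 CPM of Npas1 against 64.5 at E16.5 (0.489% of all genes were higher) but 52.5 against 143 at P1 (6.63% lower). Maf was at 2356 against 1093 CPM in Igfbpl1 cells at P1 (4.69% of all genes were higher).

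**Figure D3:**
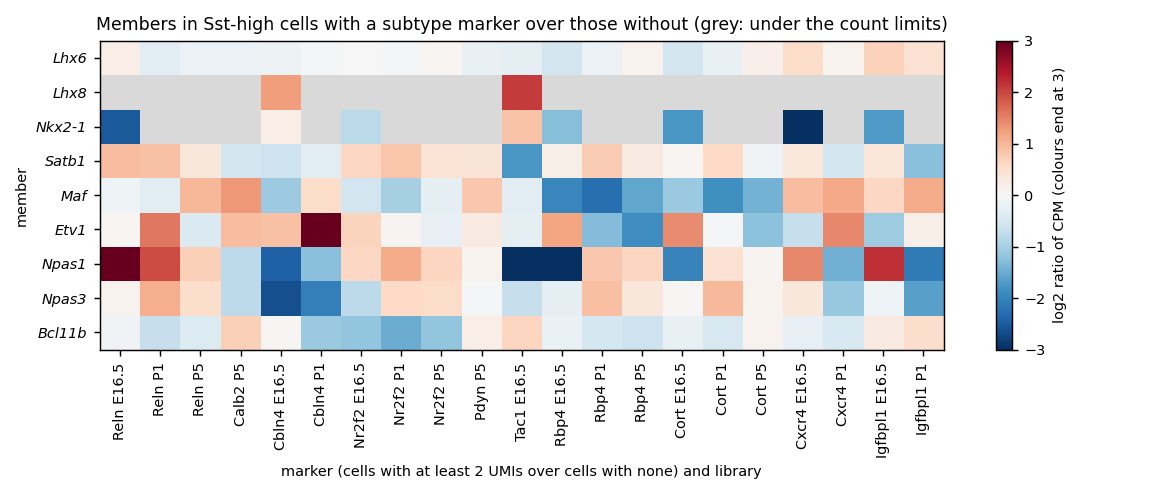
Log2 ratio of CPM (colour, ending at 3 in both directions) of each member (rows) in Sst-high cells with at least 2 UMIs of a marker over Sst-high cells with none, for each marker and library with at least 20 marker cells (columns), with grey for members under the count limits. The Lhx6 row is pale, the Maf row is blue under Rbp4 and Cort, and Etv1 changes side under both.

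Pairs of members were then counted in single Sst-high cells at 2000 UMIs per cell, against the number that independent detection would give. Etv1 and Npas1 were seldom seen in the same cell. At E16.5, 193 of 1862 cells had Etv1 and 248 had Npas1, and 2 had both where 25.7 would be given, a ratio of 0.0778 [0.00942-0.281]. At P1 2 cells had both against 3.43, and at P5 1 against 6.87, a ratio of 0.146 [0.00369-0.812]. Without thinning, where deeper cells show more of every gene, the ratios were 0.572, 0.448 and 0.260. Over all kept cells they were 0.296 [0.157-0.506], 0.422 [0.115-1.08] and 0.107 [0.0221-0.313], and in Lhx6 cells without Sst 0 cells had both against 5.92 at E16.5, 1 against 2.47 at P1, and 0 against 5.88 at P5.

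Npas1 and Npas3 were seen together more often, in 84 cells against 48.5 at E16.5, a ratio of 1.73 [1.38-2.15], in 45 against 26.1 at P1, a ratio of 1.72 [1.26-2.31], and in 130 against 102 at P5, a ratio of 1.28 [1.07-1.52]. In Lhx6 cells without Sst the ratios were 0.949 [0.704-1.25], 1.62 [0.700-3.19] and 1.84 [1.05-2.99], with no excess at E16.5. Satb1 and Npas1 gave 1.34 [1.16-1.54], 1.47 [1.16-1.84] and 1.10 [0.962-1.25]. Etv1 and Npas3 were together in 16 cells against 37.7 at E16.5. Maf and Etv1 were together in 114 cells against 114 at E16.5 and in 18 against 8.0 at P5, a ratio of 2.25 [1.33-3.56]. That excess was 1.36 [0.965-1.87] without thinning and 0.957 [0.692-1.29] in Lhx6 cells without Sst, intervals that both hold 1. Lhx6 with Satb1 stayed at 0.995, 1.01 and 0.987. Sst-high cells of several types are mixed in these counts, and the part of that mixture in ratios away from 1 was not tested.

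**Figure D4:**
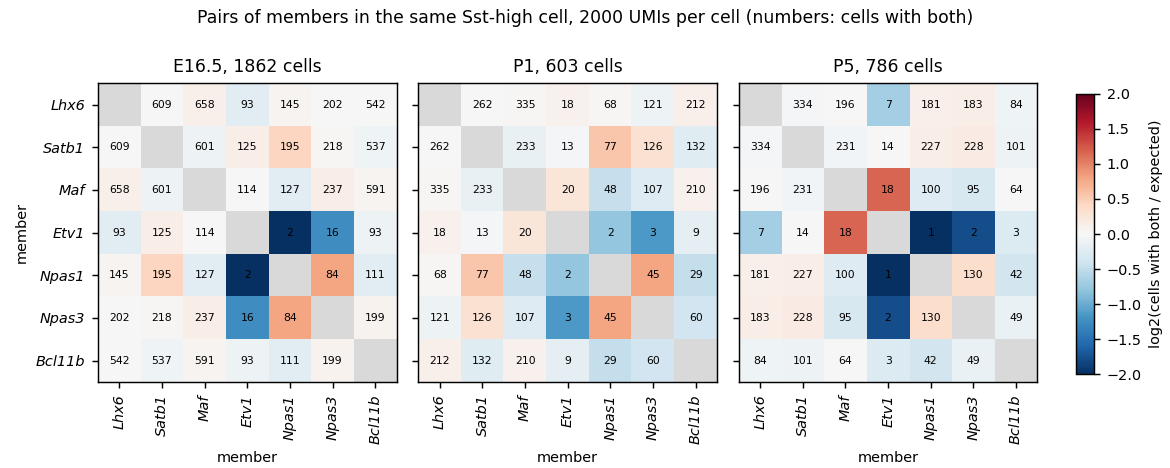
Log2 of the cells with both members over the number given by independent detection (colour, ending at 2 in both directions) for pairs of 7 members in Sst-high cells thinned to 2000 UMIs, 1 panel per library, with the number of cells with both written in each square. The squares of Etv1 with Npas1 hold 2, 2 and 1 cells, and those of Npas1 with Npas3 hold 84, 45 and 130.

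A cell held a median of 3 members at 2000 UMIs in Sst-high cells of each library, of 9 possible. In Nos1 cells the mean was 1.97, 2.56 and 1.76, and in Sst-high cells 2.71, 2.99 and 2.68. The share of cells with 0 members was 18.5%, 3.65% and 9.42% of Nos1 cells and 2.31%, 0.995% and 1.78% of Sst-high cells. Without the excitatory cells, 3 of 51 E16.5 Nos1 cells (5.88%) had 0 members, with a mean of 2.29.

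The genes whose pattern was most like each member were ranked by the mean over the 3 libraries of Pearson's r of log2(CPM + 1), across 13, 11 and 10 pools of cells (the 3 classes, excitatory-gene cells, marker cells and, at E16.5, cells with Meis2 and Gad1 or Gad2), among 5847 candidate genes. The pools share cells and a library, and no p is given. Lhx6 itself chose one class and was at 8.24 and 21.3 CPM in the Meis2 and excitatory-gene pools at E16.5, so that its r mostly describes which pools were chosen. Its nearest genes were Nxph1 (0.98), Dlx1as and Rbms3 (0.95 each), but over the 10, 9 and 8 pools of Sst-high, Nos1 and marker cells alone, a setting added after the data were seen, these came to -0.10, -0.08 and 0.52. The other members are given with the r over these fewer pools second. Maf was most like Cux2 (0.93 and 0.88), Gria1 (0.93 and 0.67) and Dlx1as (0.91 and 0.58). Npas3 was most like Arnt2 (0.92 and 0.94), Cbfa2t3 (0.90 and 0.80) and Kcnmb2 (0.87 and 0.77). Npas1 was most like Satb1 (0.88 and 0.86), Tmtc2 (0.86 and 0.70) and Col19a1 (0.85 and 0.73). Satb1 itself was nearest to Ctnnd2 (0.92 and 0.85), Spon1 (0.89 and 0.88) and AI504432 (0.88 and 0.84). Bcl11b was nearest to Gucy1a1 (0.84 and 0.87), Robo1 (0.77 and 0.72) and Vgll4 (0.77 and 0.74), and Etv1 to Plekho1 (0.82 and 0.53), Thsd7a (0.77 and 0.56) and Trim2 (0.76 and 0.70). The sparse members gave Cygb (0.79 and 0.77), Sfrp1 (0.78 and 0.84) and Npy (0.75 and 0.79) for Lhx8, and 4932438A13Rik (0.80 and 0.61), Scn1a (0.74 and 0.54) and Dlgap1 (0.71 and 0.30) for Nkx2-1. The Nkx2-1 values rest on few UMIs after E16.5, with 1 at P1 and 2 at P5 in Sst-high cells. At E16.5, Dlgap1 was at -0.64 over the fewer pools. The Lhx8 values also rest on few UMIs after E16.5, with 6 at P1 and 1 at P5 in Sst-high cells. The single pool of Nos1 cells held 26 and 18, so the Lhx8 values depend largely on that pool.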

How the data were processed

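Counts of GFP-positive cells from 3 libraries, 1 per stage, were used. The authors deposited the counts as UMIs per gene and cell, with no normalization, after alignment with STAR to GRCm38, in Cell Ranger 3.0.2 for P1 and 3.1.0 for the other libraries. P1 and P5 tissue had myelin removed and P5 tissue was also treated with trypsin, so stage, library, software and dissociation cannot be told apart. Cells with more than 700 genes and under 10% mitochondrial UMIs were kept, and the UMIs of a class were summed and scaled to CPM. Doublets were not called. The deposited files held 25638779, 15654107 and 13429055 UMIs, and 3 counts equal 0.122, 0.274 and 0.233 CPM over all kept cells.

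Intervals are 95% Poisson intervals for CPM and Clopper-Pearson intervals (exact) for shares. Thinning drew 2000 UMIs per cell without replacement, leaving out shallower cells (58, 154 and 110 Sst-high cells, 2, 78 and 133 Nos1 cells, and 73, 109 and 112 Lhx6 cells without Sst). No p-value was computed. The steps were tested on simulated data. In the text, each member is named, with up to 4 genes of each list by the largest change past 2-fold and the 3 genes most like each member. Some genes of the lists are not reported here. The members and lists were chosen with earlier results of these data known. Alternatives numbered 19 planned and 3 added after the data were seen. Python 3.11.15, numpy 2.4.6, scipy 1.17.1 and matplotlib 3.10.9 were used. Gene positions came from GENCODE on GRCm38, and promoters were found for 8 of the 9 members, with none for Maf.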

Additional observations from a re-analysis of the deposited data

Results flagged for a closer look

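3 members changed past 2-fold in opposite directions in different classes of cells or at different stages. These differences were not tested, since each stage had 1 library.

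Etv1 was lower in Sst-high cells and higher in Lhx6 cells without Sst, with log2 ratios of -1.78 and 1.03 at P1 over E16.5 and of -2.64 and 1.59 at P5 over E16.5. Set against Sst-high cells, Lhx6 cells without Sst had log2 ratios of -1.45, 1.36 and 2.78 in the order of the stages. The P1 over E16.5 value of 1.03 was under 2-fold in 7 of 12 alternatives and the E16.5 value of -1.45 in 1 of 16.

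Npas1 was lower in Lhx6 cells without Sst at P1 than at E16.5 (-1.75) and higher in Nos1 cells (2.67). At P5 over E16.5 it was -1.31 in Lhx6 cells without Sst, 1.58 in Sst-high cells and 1.60 in Nos1 cells. The Nos1 values rest on 3 UMIs at E16.5, a level within the interval of the excitatory-gene cells, and with at least 3 Nos1 UMIs the P5 over E16.5 value was -1.01, the same direction as in Lhx6 cells without Sst.

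Npas3 at P5 over E16.5 was 1.14 in Sst-high cells, -1.09 in Nos1 cells and -1.13 in Lhx6 cells without Sst. Lhx6 cells without Sst over Sst-high cells were at 1.27 at E16.5 and -1.01 at P5, and the latter was under 2-fold in 8 of 16 alternatives.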

How the results depend on the processing

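Of 51 log2 ratios of members past 2-fold, 34 stayed past 2-fold under each alternative that could be computed for them, and 17 fell under it at least once, 3 of which changed sign. With over 1000 genes and under 5% mitochondrial UMIs, Npas3 at P1 over E16.5 in Sst-high cells was -0.24 in place of 1.14 and Npas1 at P5 over P1 in Nos1 cells 0.07 in place of -1.07. With at least 3 Nos1 UMIs, Npas1 at P5 over E16.5 in Nos1 cells was -1.01 in place of 1.60. Of 240 recomputed counts of members past 2-fold, 219 were within 1.5 times the reported count. The stricter cell limits gave 6 members in both the P1 over E16.5 and the P5 over P1 comparison of all kept cells, 4 for P5 over P1 in Sst-high cells, 5 for P1 over E16.5 with 2 for P5 over P1 in Lhx6 cells without Sst, 7 for Nos1 over Sst-high cells at E16.5, and 3 for Lhx6 cells without Sst over Sst-high cells at P5. No cell filter gave 1 for P5 over P1 in all kept cells. The mean of per-cell CPM gave 2 for P1 over E16.5 in all kept cells and 2 for P5 over P1 in Lhx6 cells without Sst. A pseudocount of 5 CPM gave 2 for P5 over P1 in Nos1 cells. Without the top 5% of cells by UMIs, counts were 2 for P1 over E16.5 in all kept cells, 2 for P5 over P1 in Nos1 cells, and 1 for Lhx6 cells without Sst at P1. Without excitatory cells, P5 over E16.5 in Nos1 cells gave 5. At least 3 Sst UMIs gave 3 for Lhx6 cells without Sst at P5, and at least 10 gave 5 for P1 over E16.5, 4 for P5 over P1 in Sst-high cells and 4 for Lhx6 cells without Sst at E16.5. At least 3 Nos1 UMIs gave 1 for P1 over E16.5 in Nos1 cells and 7 for Nos1 over Sst-high cells at E16.5. The cause of these changes was not tested. Of 324 shares of cells recomputed at other depths, 94 stayed within the interval at 2000 UMIs. No paired analysis was possible because each stage had 1 library.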
